A study of Caenorhabditis elegans with 12 samples.

Results

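WAGO-4 IPs from 3×FG worms were compared with the sRNAs of the same lysates. The data for this comparison were 6 of the 12 sRNA libraries of the study, namely 3 IPs and 3 inputs, and a deposited list of 4185 features from 4183 genes, out of 63014 features of the count table. A feature is a gene or repeat together with a strand: reads in the sense of a gene and reads antisense to it were counted apart. Values are in RPM, reads normalised to the size of the library. Features were listed when the RPM of the IP reached 5 and was no less than 2 times that of the input, for all 3 lysates. All features of the list were described, with the IP of a lysate set against the input of the same lysate.

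The worms were young adults grown at 20 °C. The 3×FG worms (SS142 in the sample labels) carried 3 helicase alleles on chromosome I. The allele glh-1(allele50[glh-1F>A]) and the allele glh-4(allele16[glh-4F>A]) replace the phenylalanines of the FG repeats by alanine. The allele glh-2(allele49[glh-2 delFG]) lacks most of the FG repeats. The strain also carried wago-4(gg620[3xflag::gfp::wago-4]) on chromosome II, which adds a 3xFLAG and GFP tag to WAGO-4. The WT worms (YY1325) carried the same tagged wago-4 without the helicase alleles, with 3 IPs and 3 inputs. Both groups therefore share the tag that was used for the GFP-Trap IP, and no IP from worms without the tag was analysed here. Each library came from RNA of whole worms, so fewer germ cells and less 22G-RNA per cell cannot be told apart.

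WAGO-4 is an Argonaute protein of the C. elegans germline that binds 22G-RNAs, small RNAs named for their length and their first base. RNA-dependent RNA polymerases make 22G-RNAs on target transcripts, so that 22G-RNAs are antisense to the RNA they come from. WAGO-4 is known for the inheritance of gene silencing and gathers in germ granules, the RNA-rich bodies at the outer face of germ cell nuclei. The 3 GLH proteins changed in 3×FG are DEAD-box helicases related to Vasa that build these granules, and their FG repeats resemble those of the nuclear pore.

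The 3×FG inputs held 78826261, 45860107 and 11890545 reads, and the steps between low RPM values placed the IPs at about 20300000, 32800000 and 35900000 reads. The limit of 5 RPM therefore stood for 102 to 180 reads in an IP. Listed features took 52.3% to 56.0% of the reads in the 3×FG IPs and 7.92%, 8.70% and 11.9% in inputs 1, 2 and 3. The third input thus had a larger share of its reads on listed features than the other 2, and 87.5% of the features had their lowest ratio in pair 3. rRNA took 19.3%, 16.02% and 15.2% of the reads of the 3 inputs. Of 10 germline markers 8 were on the list, and none of the markers of body muscle (6), neurons (8), intestine (7) or hypodermis (6) was, where 20.7% of all features antisense to protein-coding genes were listed. At least 5 RPM in each input was found for 7 germline markers, all of them listed. For the markers of the other tissues it was found for only 0, 0, 3 and 1. The list did not require this input level: of its 4085 features antisense to protein-coding genes, 3192 reached it.

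Antisense 22G-RNAs against protein-coding genes made up nearly the whole list. They accounted for 4085 of the 4185 features, with 33 features antisense to pseudogenes, 27 antisense to repeats, 22 in the sense of ncRNA loci, 6 in the sense of protein-coding genes and 12 of other kinds. Of the 19691 features antisense to protein-coding genes in the count table, 20.7% were on the list. When only features with at least 5 RPM in each 3×FG input were considered, by the counts of all read classes, 3192 of 5734 were listed (55.7%). In the other classes the share was much smaller. It was 18 of 263 antisense to pseudogenes (6.84%), 11 of 165 antisense to repeats (6.67%), 7 of 78 ncRNA loci (8.97%) and 4 of 1295 in the sense of protein-coding genes (0.309%). None of 222 piRNAs, 37 tRNAs and 18 rRNA features with this input level was listed, and 1 of 120 miRNAs was. The list counts only reads of 22G-RNAs, while this input level counts reads of all classes. A feature with mostly other reads could thus reach the input level and still hardly enter the list. The small shares of these classes therefore do not show what WAGO-4 binds or leaves out.

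The ratio was used to build the list, so its values are given as a description. The median ratio of a feature over the 3 lysates was 5.76 for the middle feature, and the middle 90% of features lay between 2.83 and 11.1. A median ratio of at least 10 was reached by 341 features (8.15%) and one of at least 20 by 27. Since only features past 2 were listed, a limma fit of IP over input called 4180 of 4185 (99.9%), a count that the choice of features fixed. The features just inside the limit had ratios of 2.55, 3.20 and 2.001 for scrm-4, a scramblase homologue, and 2.04, 2.001 and 2.16 for sly-1, a factor of vesicle fusion. Features just outside it were not analysed here. The third pair was shifted to lower ratios as a whole, as the plot of ratios by pair shows.

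**Figure D1:**
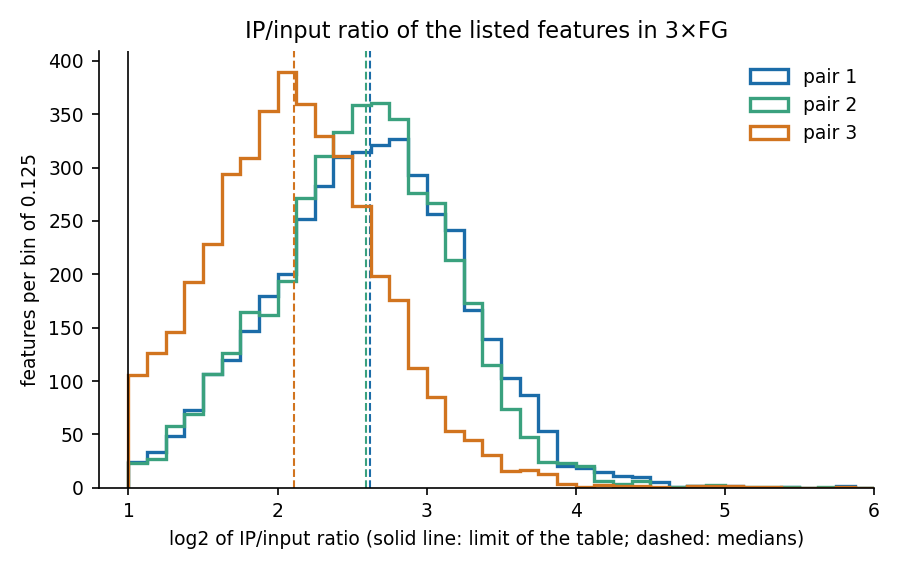
Distribution of the log2 of the IP/input ratio over the 4185 listed features in each of the 3×FG pairs (features per bin on the y axis); the solid line marks the ratio of 2 that the list required and the dashed lines the medians. Pair 3 (median 4.32) lies left of pairs 1 and 2 (medians 6.15 and 6.02), and 12, 12 and 7 features lie beyond the right edge.

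IP levels varied less between lysates than input levels. The median coefficient of variation over 3 libraries was 8.13% in the IP, 23.0% in the input and 20.5% for the ratio. The rank of features was nearly the same in each IP, with Spearman correlations across features of 0.988, 0.988 and 0.993. For the ratio the correlations were 0.845 to 0.895. Across features, mean IP and mean input levels ran together (Spearman 0.932), while the median ratio had almost no relation to the input level (0.018). Its median was 5.77 in the fifth of features with the lowest input and 5.91 in the fifth with the highest. These correlations are across features, which are not independent replicates and share the libraries.

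The 10 features with the highest level in the 3×FG IP were all antisense to protein-coding genes. The highest was cls-2 (chromosome III, 9055048 to 9058895, in WBcel235 coordinates), which encodes a CLASP protein that stabilises microtubules. It had 3771, 4041 and 3995 RPM in the IPs against 481, 523 and 646 RPM in the inputs, ratios of 7.84, 7.72 and 6.18. IP and input of cls-2 lay far apart in every lysate, and the 3 IPs were close to each other. Another spindle gene in this group was klp-18 (chromosome IV, 7040211 to 7043694), which encodes a kinesin of the acentrosomal oocyte spindle. Its IP levels were 2364, 2728 and 2865 RPM and its input levels 404, 442 and 707 RPM. The ratios of klp-18 were lower than those of cls-2 in each pair, at 5.86, 6.17 and 4.05.

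Genes of the small RNA and granule machinery were also among these 10. glh-4 (chromosome I, 3727027 to 3731179), which is itself mutated in 3×FG, had 2591, 2806 and 3236 RPM in the IPs and 392, 446 and 650.4 RPM in the inputs. prg-1 (chromosome I, 7585329 to 7588367), which encodes the Piwi Argonaute that binds piRNAs, had 2558, 2767 and 2500.1 RPM in the IPs and 291, 327 and 413 RPM in the inputs. The levels of prg-1 in the IP thus differed between lysates by less than the distance to any input. set-26 encodes a SET and PHD domain protein that binds trimethylated histone H3 and had 2111, 2717 and 2899 RPM in the IPs, with ratios of 9.02, 9.37 and 7.30. htp-1 encodes a HORMA domain protein of the meiotic chromosome axis and had 2137, 2535 and 2468 RPM, with ratios of 10.97, 12.2 and 8.49. inft-2, an inverted formin gene, had 3047, 2893 and 3128 RPM with ratios of 11.6, 10.1 and 7.39. The remaining 3 were T12E12.3 (3618 ± 314 RPM, SD, n = 3), Y48G1C.9 (3209 ± 1108 RPM, SD, n = 3) and C28A5.2 (2775 ± 209.6 RPM, SD, n = 3). Y48G1C.9 was the least even of the 10, with 3528, 1977 and 4122 RPM in the IPs and 283, 165 and 248 RPM in the inputs. Both its IP and its input were lowest in lysate 2, and the ratios were 12.5, 11.99 and 16.6.

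**Figure D2:**
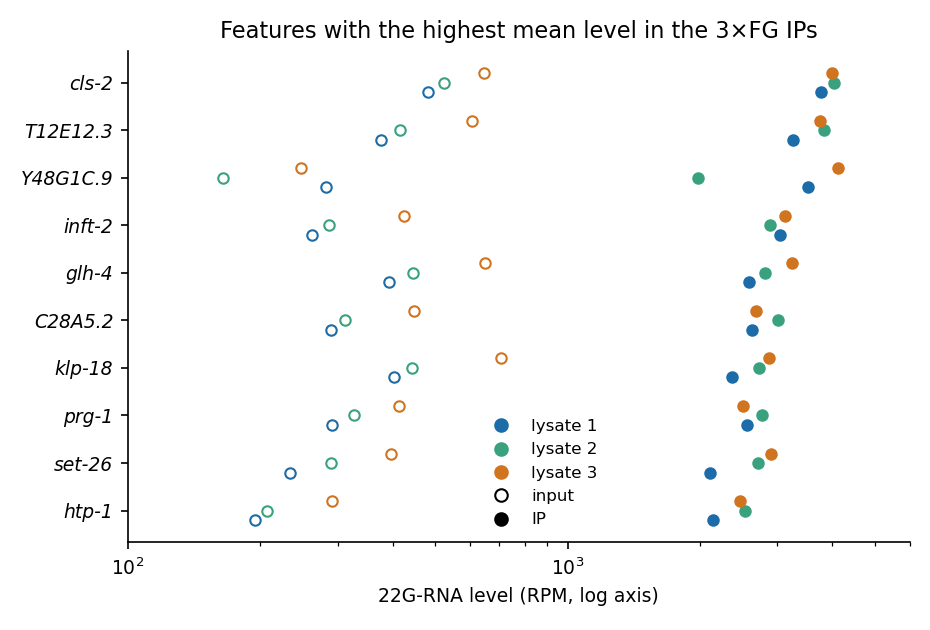
22G-RNA level (RPM, log axis) of the 10 listed features with the highest mean level in the 3×FG IPs; filled points are the 3 IPs, open points the 3 inputs, and colours mark the lysates. For each feature all 3 IPs lie to the right of all 3 inputs, and Y48G1C.9 in lysate 2 (1977 RPM in the IP) stands left of its other lysates.

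A level in RPM grows with the length of the target, so genes were compared per kb of exon. Over the 4084 features antisense to protein-coding genes with a length, the median was 39.0 RPM per kb in the IP. Y48G1C.9, whose exons cover 0.389 kb, had the highest value of the whole list, 8249 RPM per kb. Of the other features named above, htp-1 was at 1937, cls-2 at 1177, prg-1 at 978 and set-26 at 484 RPM per kb. The list was not dominated by a few features. The 100 with the highest IP level held 24.8%, 25.0% and 25.3% of the listed RPM in the IPs and 21.7%, 21.9% and 22.2% in the inputs.

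Listed genes were spread over the autosomes and were rare on the X chromosome. Among features antisense to protein-coding genes with at least 5 RPM in each 3×FG input, the share on the list was 62.5% on chromosome I, 56.3% on II, 64.1% on III, 55.8% on IV and 54.5% on V. On X it was 13 of 353, or 3.68% (95% exact binomial interval 1.98 to 6.22%, counting error only), against 3178 of 5380 on the autosomes (59.1%). The median input level of these features, listed or not, was 16.1 RPM on X and 18.5 RPM on the autosomes. The X-linked share was 3.15% at a minimum of 10 RPM in each input and 2.03% at 1 RPM, alternatives chosen after seeing the data.

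Of all 2670 X-linked features antisense to protein-coding genes, 17 were listed, and they held 0.413% of the IP RPM of the class. Their median ratios in the 3 pairs were 3.79, 3.20 and 3.49, against 6.19, 6.03 and 4.31 on the autosomes. Y73B3A.1 stood apart within this group, with 1146, 1369 and 1454 RPM in the IPs and ratios of 10.31, 11.5 and 8.96. The next were T07D1.2 with 304, 186 and 229 RPM and ratios near the limit (2.31, 2.12 and 2.06), and mrp-4, an ABC transporter gene, with 205, 171 and 190.4 RPM. Of the 14 others none had an IP mean above 120.4 RPM, which was that of T10B10.3. These 4 X-linked genes were named after their values were seen. Of the 17 X-linked features 8 were also listed in WT, against 3997 of 4067 on the autosomes.

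**Figure D3:**
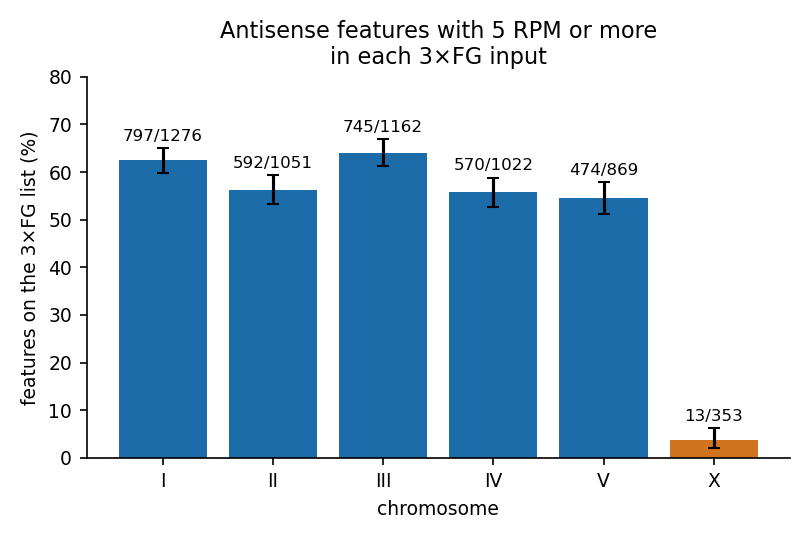
Share of features antisense to protein-coding genes that were on the 3×FG list, among those with 5 RPM or more in each 3×FG input, by chromosome; bars are percentages, error bars 95% exact binomial intervals and the fractions give listed over tested. Chromosomes I to V lie between 54.5% and 64.1% and X at 3.68%.

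Members of every germline gene group that was examined were on the list, on which stood 20.7% of all features antisense to protein-coding genes and 55.7% of those with at least 5 RPM in each input. With this input level, 10 of 17 Argonaute genes and 8 of 17 histone genes were listed, shares near that of all such features. The counts were 15 of 17 for 22G-RNA synthesis factors, 19 of 21 for germ granule genes, 20 of 22 for oocyte and maternal RNA-binding proteins and 26 of 27 for meiotic genes. They were 23 of 26 for germline chromatin regulators, 31 of 32 for cell division genes, 24 of 25 for nucleoporin genes and 50 of 53 for ribosomal protein genes.

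Of the 19 Argonaute genes measured, 10 were listed, and the median of their median ratios over the lysates was 7.38, against 5.76 for all listed features antisense to protein-coding genes. Besides prg-1 these were wago-4 itself, at 2160.2, 2224 and 2043 RPM in the IPs and 180.0, 206 and 283 RPM in the inputs, and ppw-2, at 1596, 1864 and 1778 RPM in the IPs. Both were high in all 3 IPs, with ratios of 12.002, 10.8 and 7.22 for wago-4 and 9.02, 9.16 and 6.34 for ppw-2. csr-1, which encodes the Argonaute that protects germline transcripts, had 1056, 1011 and 1086 RPM and ratios of 7.24, 6.30 and 4.78. The lowest ratio of the group was that of hrde-1, the nuclear Argonaute of inherited silencing, at 2.91, 2.90 and 2.71, although its IP level was high (690.0 ± 68.6 RPM, SD, n = 3). Argonautes with at least 5 RPM in each input that were not listed were alg-1, alg-2, alg-3, alg-4, sago-2, nrde-3 and wago-5, whose mean input levels lay between 6.23 and 15.6 RPM.

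Factors that make 22G-RNAs were listed for 16 of 20 genes, with a median ratio of 4.90. mut-14, a DEAD-box helicase gene of the mutator complex, led with 1238, 1114 and 1163 RPM and ratios of 13.3, 10.34 and 8.20. ego-1, which encodes a germline RNA-dependent RNA polymerase, had 427, 515 and 456 RPM, and simr-1, whose protein links piRNA targets to the mutator complex, had 434, 378 and 399 RPM. smut-1, the paralogue of mut-14, had the lowest ratio, 2.11, 2.30 and 2.82, and only 31.3 ± 6.48 RPM (SD, n = 3). rde-11, with a mean of 318 RPM in the inputs, and rrf-2, with 76.9 RPM, were not listed. drh-3 had no antisense read in any input of either genotype, so whether its reads were assigned to it at all is not known.

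Of 24 germ granule genes, 20 were listed, with a median ratio of 7.08. After glh-4 the highest were pid-5 (1419.7 ± 124 RPM, SD, n = 3), a gene of piRNA-induced silencing, and znfx-1 (1241 ± 111 RPM, SD, n = 3), which encodes the helicase that marks Z granules. The 3 mutated helicase genes differed among themselves: glh-4 had ratios of 6.62, 6.29 and 4.97, glh-1 of 2.84, 2.66 and 2.29 and glh-2 of 2.66, 2.31 and 2.56. Thus glh-1 and glh-2 lay close to the limit in every pair, although glh-1 had 685, 741 and 750.5 RPM in the IPs. The glh-2 allele lacks part of the sequence that this feature covers. The lowest ratio of the group was that of pgl-2, a P granule gene, with 2.27, 2.53 and 2.54. The GFP tag was not listed, with 115, 92 and 25 antisense reads in the inputs.

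Oocyte and maternal RNA-binding proteins were listed for 22 of 28 genes, with a median ratio of 6.75. The highest levels were those of fbf-2 (1077 ± 57.8 RPM, SD, n = 3) and puf-8 (509.6 ± 16.2 RPM, SD, n = 3), which encode Pumilio family repressors of the germline, and of cpb-3 (589 ± 18.4 RPM, SD, n = 3), a CPEB homologue. puf-6 had the lowest ratio, 3.93, 3.54 and 2.85. In the meiotic group 29 of 32 genes were listed, with a median ratio of 6.72. After htp-1 came msh-5, a crossover factor gene (557 ± 17.4 RPM, SD, n = 3), and htp-3, a core gene of the meiotic axis (544 ± 47.0 RPM, SD, n = 3). him-14, the partner of msh-5, had the lowest ratio, with 2.59, 2.64 and 2.30.

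Germline chromatin regulators (23 of 27 listed, median ratio 6.29) were led by nrde-2, a gene of nuclear RNAi, with 1564, 1659.8 and 1574 RPM, and by morc-1, with 1525, 1456 and 1391 RPM. set-2, which encodes a histone H3 lysine methyltransferase, had 676, 743 and 742 RPM. hpl-2, one of the HP1 homologues, had the lowest ratio, 3.16, 2.67 and 2.51. Cell division genes were listed for 32 of 33 (median ratio 5.50). top-2, the topoisomerase II gene, had 2020.0, 2405 and 2424 RPM, cdk-1 1589, 1729.8 and 1642 RPM and icp-1, the INCENP gene, 988, 1189.8 and 1249.8 RPM. The centriole gene sas-6 was the lowest by ratio (2.57, 3.37 and 2.30) and had 12.4 ± 2.89 RPM (SD, n = 3).

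Nucleoporin genes had the highest median ratio of the groups over the lysates, 7.77, and 24 of 25 were listed. In pair 3 alone the median of Argonaute genes was higher (5.81 against 5.38). npp-10 had 468, 575 and 508 RPM, npp-3 439, 489 and 479 RPM and npp-9, the RanBP2 homologue, 436, 418 and 397 RPM. npp-21, the TPR homologue, had the lowest ratio (3.54, 3.52 and 2.81). Ribosomal protein genes were listed for 65 of 78, at a low median ratio of 4.65 and a low median IP level of 35.5 RPM. Since ribosomal protein genes are short, their median per length, 55.6 RPM per kb, lay above that of all listed features of the class (39.0). The highest by IP level were rpl-23 (605 ± 62.7 RPM, SD, n = 3), rps-16 (259 ± 31.6 RPM, SD, n = 3) and rpl-19 (259 ± 21.6 RPM, SD, n = 3), and rps-19 lay at the limit, with ratios of 2.45, 2.02 and 2.01.

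Histone genes were listed for 22 of 72. The 2 highest, his-74 (590.5 ± 77.2 RPM, SD, n = 3) and his-72 (264 ± 24.7 RPM, SD, n = 3), encode the variant H3.3, and his-62 had 225 ± 5.07 RPM (SD, n = 3). his-74 had ratios of 17.04, 17.4 and 12.3, above those of his-72 (11.7, 7.82 and 5.96) in each pair, and his-10 had the lowest (2.20, 2.03 and 2.13). The single copies are uncertain, as 10 of the histone genes, his-10 among them, had values identical to those of another gene in all 6 libraries.

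Gene families with somatic or sperm expression were nearly absent. None of 156 collagen genes was listed, 5 of 269 nuclear hormone receptor genes were, 13 of 395 F-box, MATH and BATH genes, and 3 of 59 sperm genes. Of all features antisense to protein-coding genes 20.7% were listed. At least 5 RPM in each input was found for 6 collagen, 30 nuclear hormone receptor, 96 F-box, MATH and BATH and 17 sperm genes, of which 0, 5, 11 and 1 were listed (55.7% of all such features). nhr-86 was the highest nuclear hormone receptor gene (271 ± 29.0 RPM, SD, n = 3), followed by nhr-66 (212 ± 8.66 RPM, SD, n = 3) and nhr-23, a moulting regulator (179 ± 4.78 RPM, SD, n = 3), and nhr-274 had the lowest ratio (3.55, 3.27 and 2.39). The listed sperm genes were spe-39, which also acts in vesicle traffic (82.2 ± 1.78 RPM, SD, n = 3), spe-44, a transcription factor gene (20.0 ± 1.89 RPM, SD, n = 3), and spe-48 (9.19 ± 0.886 RPM, SD, n = 3). bath-40 stood out from its family with 456 ± 67.7 RPM (SD, n = 3), against 76.6 RPM for bath-42, 73.2 RPM for bath-44 and ratios of only 2.87, 2.44 and 2.33 for bath-30.

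**Figure D4:**
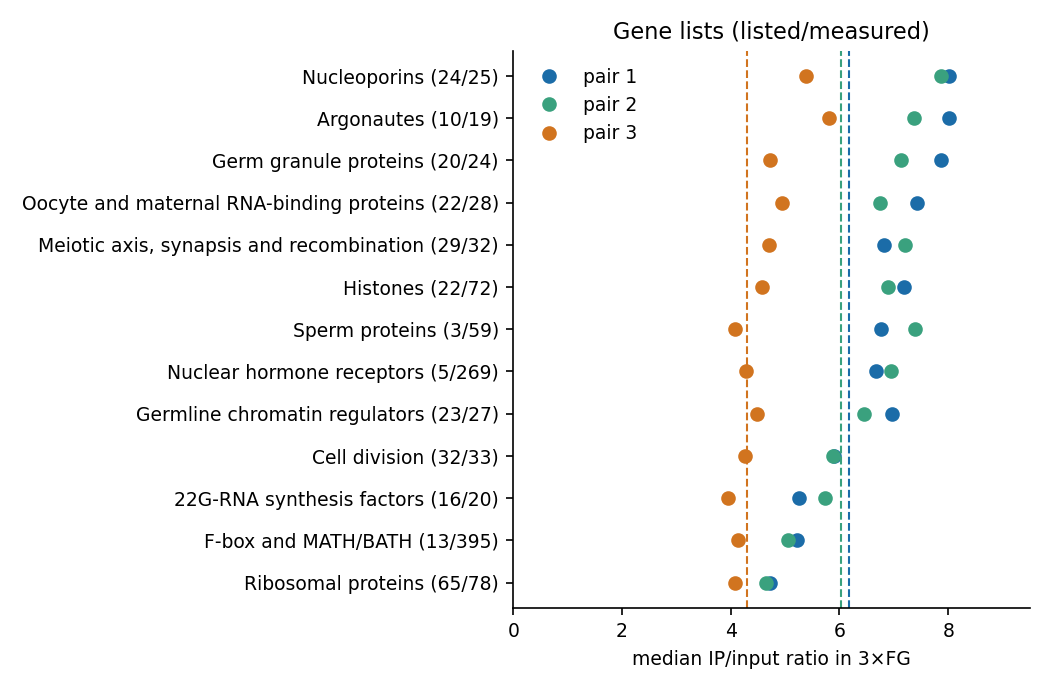
Median IP/input ratio of the listed members of each gene list in the 3 pairs of 3×FG libraries (points), with the medians of all 4085 listed features antisense to protein-coding genes as dashed lines in the same colours; brackets give listed over measured genes. Nucleoporin genes (median ratio 7.77) lie right of the dashed lines in all pairs and ribosomal protein genes (4.65) left of them.

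Of the 10 features with the highest ratios, 3 were antisense to protein-coding genes. By the lowest of the 3 ratios, and with at least 10 reads in each input, the highest was the simple repeat (ACATCA)n, with 124, 68.6 and 79.1 RPM in the IPs and 2.31, 1.80 and 2.11 RPM in the inputs. K07C10.3, an ncRNA locus (chromosome II, 11166676 to 11167704), had 405, 558 and 514 RPM in the IPs and 18.2, 18.3 and 14.9 RPM in the inputs. Its IPs lay far above its inputs in each lysate, with ratios of 22.3, 30.6 and 34.5. The others were the ncRNA locus F55A11.13 (ratios 21.2, 22.5 and 34.3), antisense reads at the ncRNA locus C06A1.12 (41.7, 29.2 and 22.4) and at the pseudogene F18A11.6 (28.7, 22.3 and 17.8), and the simple repeats (TTCTCT)n (21.9, 33.2 and 18.2) and (AGCTCC)n (25.9, 25.07 and 18.1). Only Y54E5A.5 (26.9, 22.03 and 22.8), dad-1, a gene of protein glycosylation (19.5, 17.002 and 15.1), and rps-9, a ribosomal protein gene (23.6, 17.5 and 19.7), were antisense to protein-coding genes.

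In the repeat class, the 24 simple repeats had median ratios of 13.1, 12.1 and 10.9 over the lysates and a median IP level of 19.4 RPM. Their own median ratios ran from 3.27 to 38.1, so the lowest lay among the 3 other repeats, which ran up to 5.12. The others were HelitronY1_CE, of a Helitron DNA transposon, CeRep1A and LTRCER1, of the Cer1 retrotransposon. HelitronY1_CE had 1455, 1670.2 and 1669 RPM in the IPs against 582, 645 and 762 RPM in the inputs, so its ratios stayed at 2.499, 2.59 and 2.19. It held 40.1% to 43.8% of the RPM of listed repeats in the IPs and 65.4% to 66.1% in the inputs. CeRep1A had 1143, 1302 and 1298 RPM in the IPs and LTRCER1 39.1, 40.6 and 34.4 RPM, with ratios of 5.12, 5.33 and 4.53 and 4.79, 4.91 and 3.49.

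The share of the listed RPM was compared between IP and input for 6 classes with two-sided exact permutation tests over 3 libraries against 3, for which 0.1 is the smallest possible p. The ratio had already chosen these features, so the shares are no independent evidence of a difference. Repeats took 0.693% ± 0.0073 (SD, n = 3) in the IPs and 1.07% ± 0.090 (SD, n = 3) in the inputs, which did not overlap (exact p = 0.1, adjusted over the 6 classes p = 0.15). Features in the sense of ncRNA loci took more in the IPs, 0.243% ± 0.015 against 0.165% ± 0.011 (SD, n = 3 each, exact p = 0.1, adjusted p = 0.15). Pseudogenes took 0.661% ± 0.013 in the IPs and 0.748% ± 0.023 in the inputs (SD, n = 3 each, exact p = 0.1, adjusted p = 0.15). No class could pass 0.05 in this design. Without HelitronY1_CE, left out after its values were seen, the share of repeats, IP minus input, turned from -0.377 to 0.034 percentage points (exact p = 0.2).

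Among the 33 pseudogenes the highest were klp-10 (544 ± 47.5 RPM, SD, n = 3), prg-2 (503 ± 10.4 RPM, SD, n = 3) and F18A11.6 (481 ± 35.4 RPM, SD, n = 3), the first 2 being named as relatives of kinesin genes and of prg-1. prg-2 is close in sequence to prg-1, so reads that match both are uncertain. The median ratios of the class were 4.17, 4.22 and 3.79, below those of features antisense to protein-coding genes in each pair (6.17, 6.02 and 4.31).

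Features in the sense of a gene were few, and part of them lay opposite another gene. Of 34 such features with a position, at least 19 overlapped a gene on the other strand in the WBcel235 annotation, and 13 overlapped a listed gene. T06D8.12, an ncRNA locus (chromosome II, 11237458 to 11237597), lay opposite rpn-9, a proteasome subunit gene, and had 253, 302 and 253 RPM in the IPs with ratios of 11.7, 15.2 and 8.54. The only listed piRNA, 21ur-9360 (chromosome III, 9616286 to 9616306), lay opposite hcp-3, the gene of the centromeric histone, and had ratios of 7.93, 4.18 and 3.52. Reads there can be read as sense to the small locus or antisense to the gene. The ncRNA locus F31C3.14 had 119.5 ± 17.7 RPM (SD, n = 3) and ratios of 3.38, 3.15 and 2.30.

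In the sense of protein-coding genes, rpl-25.2 (73.0, 36.3 and 70.4 RPM in the IPs), moma-1 (79.5, 25.3 and 43.7 RPM) and tpra-1 (20.3, 21.4 and 24.6 RPM) were the highest. The first 2 were uneven between IPs and were listed on both strands. moma-1 lay opposite K02F3.2, a listed gene, so its sense reads can also be read as antisense to that gene. By the reads behind the inputs, 58.9%, 57.8% and 60.5% at the median feature of this class were of the 22G class, against 90.5%, 90.1% and 91.6% in features antisense to protein-coding genes. cel-miR-253-3p was the only miRNA on the list, with 416, 309 and 299.8 RPM in the IPs, 103, 90.1 and 74.1 RPM in the inputs and ratios of 4.02, 3.43 and 4.05.

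Some ratios rest on inputs with hardly any read. For 24 listed features at least 1 input had fewer than 10 reads, and for 11 an input value stood at the offset of 0.01 RPM, and the ratio is then no more than a high number. mdt-11, a Mediator subunit gene, had 133, 146 and 159.9 RPM in the IPs but 10, 10 and 0 antisense reads in the 3×FG inputs. In the WT inputs the same feature had 232, 0 and 3 reads. C09D4.4 had 0, 1508 and 468 reads in the 3×FG inputs. Counts of this kind, present in one input and nearly absent from another, were found for 11 of 4903 features antisense to protein-coding genes with at least 10 RPM in any 3×FG input. Of these, 3 were listed. Among the 8 that were not were gld-1, a translational repressor gene of the germline, with 0, 0 and 356 reads, and pid-2, a Z granule gene, with 0, 8282 and 3161 reads. For these genes, absence from the list cannot be read as absence from the IP.

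Most of the list was also found in WT: 4080 of the 4185 features were in the WT list of 4850. The remaining 105 features, from 103 genes, were listed in 3×FG only, among them CeRep1A and cel-miR-253-3p. In the 4080 shared features the change of IP over input between 3×FG and WT was tested as an interaction with limma-trend on log2(RPM + 1), with a term for each lysate. The WT inputs held 2208475, 5200665 and 20006273 reads, so that 5 RPM stood for 11, 26 and 100 reads, and WT inputs 1 and 2, which carry another batch label than all other libraries, are the shallowest. The rRNA share of the 3 WT inputs was 3.18%, 4.95% and 20.1%. Features of the WT list took 65.7% to 72.5% of the reads of the WT IPs. Features of the shorter 3×FG list took 52.3% to 56.0% in the 3×FG IPs, so these shares are over unlike sets of features. The part of these differences in the results was not tested beyond WT pair 3. Both lists required a ratio of at least 2, so a feature that lost its enrichment in 3×FG could not enter. The change is one of the ratio, so a call of lower can go with a lower IP, a higher input or both. The median change was -0.67 on the log2 scale, and 1021 features were called lower (25%) and 11 higher (0.27%), at an adjusted p under 0.01 and a change beyond 1. The 3 ratios of 3×FG all lay below those of WT for 2338 features (57.3%) and all above for 47 (1.15%). The shift of the median depends on scaling: with TMM scaling it was 0.05, and 64 features were called lower and 73 higher. Only WT pair 3 shares the batch label of the 3×FG libraries. With WT pair 3 alone, where the lone WT lysate is assumed to vary like the 3×FG lysates, the median was -0.42, with 342 features lower and 3 higher. Without 3×FG replicate 3, 455 features were lower and 6 higher.

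The largest decreases were those of C06G3.8, ZC434.8 and Y54E5A.7. C06G3.8 (chromosome IV, 7031559 to 7032559) had ratios of 4.44, 2.62 and 2.13 in 3×FG and 28.2, 19.5 and 19.8 in WT, a change of -2.88 (standard error 0.28, limma adjusted p = 1.5e-11). ZC434.8 (chromosome I, 10348055 to 10349369), a relative of arginine kinase genes, had ratios of 2.26, 2.32 and 2.47 in 3×FG and 18.0, 14.3 and 17.1 in WT, and its change was -2.77 (standard error 0.25, limma adjusted p = 4e-12). The genotypes were far apart for both. For Y54E5A.7 (chromosome I, 14711082 to 14715030) the change was -2.54 (standard error 0.25, limma adjusted p = 3.6e-11). With TMM scaling these 3 stayed called, at -2.10, -2.01 and -1.76. They remained past the threshold in all alternatives that were run.

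The 3 largest increases were those of 2 simple repeats and a pseudogene. (ACATCA)n had ratios of 53.9, 38.1 and 37.4 in 3×FG and 4.82, 7.78 and 12.7 in WT, a change of 2.12 (standard error 0.30, limma adjusted p = 2e-07). (TCTTTCC)n changed by 1.47 (standard error 0.32, limma adjusted p = 0.00018) and the pseudogene W02F12.1 by 1.42 (standard error 0.31, limma adjusted p = 0.00025). In 3×FG the inputs of all 3 were only 1.602 to 3.29 RPM. With WT pair 3 alone the changes of (TCTTTCC)n and W02F12.1 were 0.69 and 0.60. Neither was called without 3×FG replicate 3 (adjusted p = 0.017 and 0.037 by limma). W02F12.1 was not called with TMM scaling either (adjusted p = 0.012 by limma). K07C10.3 rose by 1.299 (standard error 0.28, limma adjusted p = 0.00016), with WT ratios of 7.15, 12.4 and 18.4, all below those of 3×FG. Its call was lost with WT pair 3 alone, without 3×FG replicate 3 and without WT replicate 1.

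**Figure D5:**
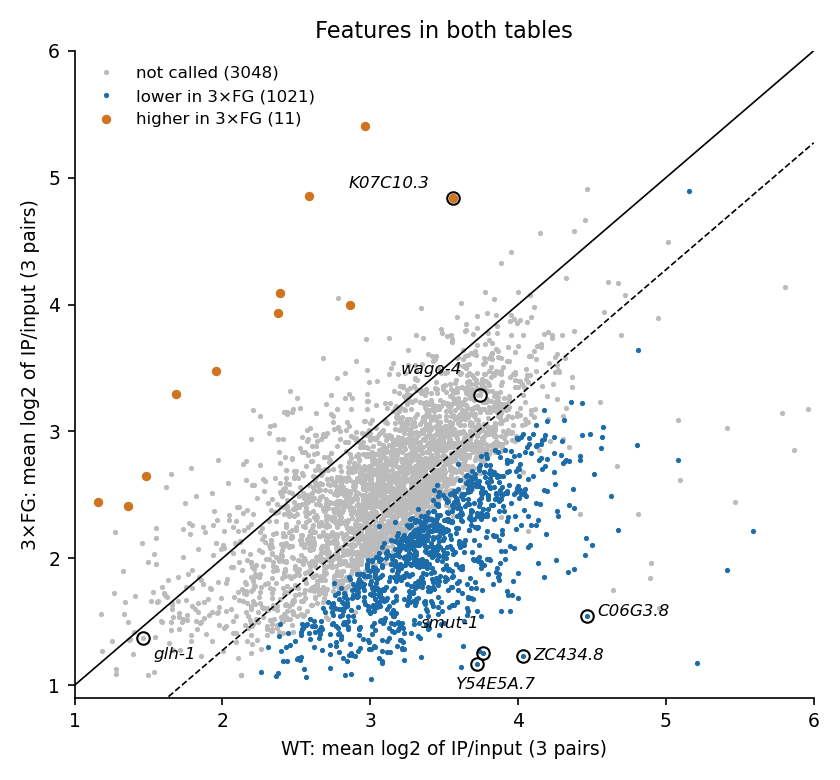
Mean log2 of the IP/input ratio over 3 pairs in WT (x axis) and 3×FG (y axis) for the 4080 features in both lists, coloured by the interaction call; the solid line marks equal ratios, the dashed line the median difference, and 3 features lie outside the axes. Most features lie below the solid line, and 7 features are circled and named, K07C10.3 above that line and ZC434.8 and C06G3.8 far below it.

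The gene groups followed the shift to different degrees, with no test made of a difference between groups. The median change was -0.55 for Argonaute and nucleoporin genes, -0.56 for germ granule genes, -0.75 for 22G-RNA synthesis factors and -0.91 for ribosomal protein genes. It lay closest to 0 for the 18 histone genes in both lists (-0.30) and farthest for the 5 nuclear hormone receptor genes (-0.94), against -0.68 for all features antisense to protein-coding genes. With TMM scaling the medians turned to 0.21, 0.20, 0.19 and 0.01 for Argonaute, nucleoporin, germ granule and synthesis genes, with 0.39 for histone, -0.15 for ribosomal protein and -0.18 for nuclear hormone receptor genes and 0.05 for the class. Of 63 ribosomal protein genes in both lists 29 were called lower and none higher, against 25% and 0.27% of all features tested. With TMM scaling 4 were called lower, without 3×FG replicate 3 there were 16, and with WT pair 3 alone 14. Among the nucleoporin genes 1 of 24 was called lower, and among the germ granule genes 1 of 20, pgl-2 (-1.61, standard error 0.28, limma adjusted p = 5.9e-06). The call of pgl-2 was lost with TMM scaling. The single germ granule gene called higher was vbh-1 (1.04, standard error 0.25, limma adjusted p = 0.00075), a Vasa-related helicase gene named here after its value was seen; it was no longer called with WT pair 3 alone, or when WT replicate 2 or 3 or 3×FG replicate 1 or 2 was left out.

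Of the synthesis factors 6 of 16 were called lower, against 25% of all features, with smut-1 at -2.503 (standard error 0.27, limma adjusted p = 3.5e-10). Its WT ratios were 16.2, 15.9 and 9.72 and those of 3×FG 2.11, 2.30 and 2.82, without overlap, and it was the only one of the 6 still called with TMM scaling. In contrast, mut-14 had ratios of 12.7, 13.0 and 14.7 in WT and 13.3, 10.34 and 8.20 in 3×FG, which overlapped, and a change of -0.36 (standard error 0.25, limma adjusted p = 0.22). Without 3×FG replicate 3, 4 of the synthesis factors were called, and with WT pair 3 alone 3 (nyn-2, smut-1 and rde-8). Of 10 Argonaute genes in both lists 2 were called lower, no larger a share than the 25% of all features. These, named after their values were seen, were rde-1 (-1.34, standard error 0.28, limma adjusted p = 0.00012) and ergo-1 (-1.19, standard error 0.27, limma adjusted p = 0.00041). Neither was called with TMM scaling, and rde-1 was not without 3×FG replicate 3 or with WT pair 3 alone. Neither of the 2 Argonautes wago-4 and csr-1 passed the threshold, at -0.45 (standard error 0.26, limma adjusted p = 0.14) and -0.54 (standard error 0.26, limma adjusted p = 0.069).

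For the mutated genes the change was -0.09 (standard error 0.25, limma adjusted p = 0.76) for glh-1, -0.83 (standard error 0.26, limma adjusted p = 0.0064) for glh-2 and -0.55 (standard error 0.27, limma adjusted p = 0.069) for glh-4. None of the 3 was called, as none went beyond 1. The WT ratios of glh-1 were 2.85, 2.79 and 2.63, so the feature lay near the limit of 2 in both genotypes and the values overlapped. The changes of glh-1, glh-4, wago-4 and csr-1 turned positive with TMM scaling (0.68, 0.21, 0.32 and 0.23), where that of glh-2 was -0.12. Of the 10 features with the highest IP level, klp-18 (-1.18, standard error 0.27, limma adjusted p = 0.00029) and set-26 (-1.21, standard error 0.26, limma adjusted p = 0.0002) were called lower, but neither with TMM scaling, with WT pair 3 alone or without 3×FG replicate 3. In contrast, cls-2 had overlapping ratios (8.85, 7.59 and 5.43 in WT and 7.84, 7.72 and 6.18 in 3×FG).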

How the data were processed

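Small RNA libraries of 3 inputs and 3 WAGO-4 IPs per genotype were sequenced from young adults. Per the labels, reads were processed with cutadapt 1.15 and STAR 2.6.0c, and the builds ce10 and ce11 are named in the submitters' processing notes. The authors deposited raw counts per feature for the 6 inputs. The authors deposited RPM of the 22G class for listed features, with an offset of 0.01, beside columns with their own means and IP/input comparison that were not used. RPM times library size did not exceed the counts by more than 1 read in any listed feature, and 89.7% to 91.2% of the reads of listed features in the 3×FG inputs were of the 22G class. Reads on no feature (4.58% to 5.05% in 3×FG) were left out of tests. Precision within 3×FG is limited by the inputs, where the median feature had 196 reads in its lowest input, and that of the comparison with WT by WT inputs 1 and 2.

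Ratios were taken per lysate, since library names tie IP and input to one lysate, while numbers do not pair lysates across genotypes. The deviations of same-numbered IPs and inputs correlated at 0.114, 0.097 and 0.042. Fits used limma 3.58.1 (trend) on log2(RPM + 1) in R 4.3.3, a scale that understates changes of low features. TMM factors came from edgeR 4.0.16. Exact permutation tests used scipy 1.17.1 and Python 3.11.15. The code was tested on simulated data. Positions of 4156 of the 4157 features with a WormBase identifier come from the WBcel235 annotation. Alternatives were other pseudocounts, minimum levels, scaling, pairing and each lysate left out.

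Named features were, by rule, the 10 with the highest IP level, the 10 highest and 5 lowest by lowest ratio, up to 3 per smaller class, 3 by IP level and 1 by lowest ratio per gene list, 3 interaction changes in each direction without overlap of ratios, and the genes of the study. The members and lists were chosen with earlier results of these data known. No p-value was computed for a list. The study calls the 3 samples of each genotype biological replicates. Whether they came from separate cultures is not said, so p-values measure the spread between these samples.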

Additional observations from a re-analysis of the deposited data

Results flagged for a closer look

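The change of IP over input differed between 3×FG and WT, by the interaction test of limma at an adjusted p under 0.01 and a change beyond 1, for 24 of the named features. Among all 4080 features tested, 25% were called lower and 0.27% higher. The number of calls among named features cannot be compared with these shares, since part of the naming used the change or the ratio itself. The decreases, on the log2 scale, were -2.88 (C06G3.8), -2.77 (ZC434.8), -2.54 (Y54E5A.7), -2.50 (smut-1), -2.004 ((AGCTCC)n), -1.92 (sly-1), -1.68 (tpra-1, sense), -1.61 (pgl-2), -1.50 (him-14), -1.40 (nhr-86), -1.35 (klp-10), -1.29 (npp-21), -1.21 (set-26), -1.18 (klp-18), -1.18 (nhr-274), -1.15 (hpl-2), -1.13 (sas-6), -1.09 (icp-1), -1.09 (bath-44) and -1.06 (spe-44). The increases were 2.12 ((ACATCA)n), 1.47 ((TCTTTCC)n), 1.42 (W02F12.1) and 1.299 (K07C10.3). Some of them were named because their 3×FG ratio was the lowest of a gene list, which favours decreases. The call was kept in all alternatives by 6, namely C06G3.8, ZC434.8, Y54E5A.7, smut-1, sly-1 and (ACATCA)n. With TMM scaling 8 kept it, with WT pair 3 alone 10, and without 3×FG replicate 3 it was kept by 13 and lost by klp-18, set-26, icp-1, K07C10.3, (AGCTCC)n, nhr-86, W02F12.1, (TCTTTCC)n, nhr-274, spe-44 and sas-6. Without WT replicate 1 icp-1, K07C10.3 and nhr-274 lost it, without WT replicate 2 icp-1 and bath-44, and without WT replicate 3 spe-44. The values include a median change of -0.67 over all features tested, whose relation to batch was not tested beyond WT pair 3 alone, where it was -0.42.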

How the results depend on the processing

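Of 534 alternative values, 458 were counted as the same. For the change of a named feature this meant the same direction and the same side of the threshold. Counts had to stay within a set factor of the main count, and class shares only had to keep their sign. Medians had to move by less than the spread between pairs or a set amount, and shares on the list to stay within the binomial interval. Paired sign flips left the class shares unchanged and were counted as the same. With TMM scaling over the listed features, which centres the ratios by construction, 152 features were higher in the 3×FG IP in place of 4180, and against WT 137 features were called in place of 1032, with 64 lower and 73 higher. The median change against WT turned to 0.047, and the changes of glh-1, glh-4, wago-4 and csr-1 turned to 0.68, 0.21, 0.32 and 0.23. With WT pair 3 alone 345 features were called, 342 lower and 3 higher. With each lysate left out, 461 to 1426 features were called, 455 to 1412 lower and 6 to 14 higher; 455 and 6 were reached without 3×FG replicate 3, and 7 higher without 3×FG replicate 1. Without the replicate block, 983 were lower and 10 higher, and 4180 were higher in the 3×FG IP, and paired sign flips of the class shares gave an exact p = 0.25 for features antisense to protein-coding genes, the smallest that 3 pairs allow. With a ratio of at least 3 required, the share of those features in IP minus input turned from 0.43 to -0.13 percentage points, that of pseudogenes to 0.048 and that of repeats to 0.0067. Without HelitronY1_CE repeats turned to 0.034, an alternative added after seeing the data, like the minima for the X chromosome. At a minimum of 1 RPM in each input, 44.1% of features antisense to protein-coding genes were listed. The ratio of weakly covered features is limited by the depth of input 3.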
